A study of Mus musculus with 4 samples.

Results

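A set of 40 genes of dermal fibroblasts and of the matrix they make was followed through 4 RNA-seq libraries of mouse back skin. The genes were chosen by symbol, as exact matches among the 20611 gene symbols of the count tables, and all 40 were found. They comprise 12 elastic fibre genes, 7 proteoglycan genes, 5 genes of crosslinking and collagen processing, 8 genes of matricellular and adhesive proteins, and 8 fibroblast markers. The skin came from male BALB/c mice, 8 to 9 weeks old. Every mouse had its back skin treated once a day with cream holding 5% imiquimod (47 mg per day) from day 1 to day 5, and skin was taken on day 6. Imiquimod is a Toll-like receptor 7 agonist that produces a psoriasis-like inflammation of mouse skin. The IMQ group (1 library) received the cream alone. The IMQ+VEH group (2 libraries, called replicates 1 and 2) also received a placebo lotion about 1 h after the cream. The IMQ+IDMF group (1 library) received instead a lotion containing IDMF, isosorbide di-(methyl fumarate), which is described as a dimethyl fumarate pro-drug. No skin free of imiquimod was among the libraries, so no value below is set against healthy skin. The labels describe the libraries as independent biological replicates and do not say whether tissue of several mice was pooled.

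As background, elastic fibres consist of a core of elastin laid on a scaffold of fibrillin microfibrils. Fibulins, microfibril-associated proteins and the EMILIN proteins join the parts, and enzymes of the lysyl oxidase family crosslink elastin and collagen. Small leucine-rich proteoglycans such as decorin and lumican bind collagen fibrils and set their spacing. Latent TGF-beta binding proteins store TGF-beta in the microfibrils, and matricellular proteins such as SPARC and the thrombospondins modulate how cells meet the matrix. In skin most of these genes are expressed by fibroblasts of the dermis, and several also by pericytes, smooth muscle or endothelium.

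The libraries held 21167149 to 26639628 counts in genes. All 40 genes passed the filter on low counts, with 20 counts (Fbn2 in IMQ) to 36169 counts (Sparc in replicate 1) per library. Levels of different genes were compared as FPKM, the authors' values, which are scaled by transcript length and library depth. Sparc and Dcn were among the 3 most abundant of the 40 genes in every library, at 78.2 to 409.9 FPKM and 130.3 to 362.5 FPKM. The other of the 3 was Postn, except in replicate 1, where it was Dpt. Fbn2 and Lrrc15 were the least abundant, at 0.0532 to 0.39 FPKM and 0.191 to 0.496 FPKM. The median FPKM over the 40 genes was 5.48 in IMQ, 9.81 and 5.67 in the IMQ+VEH libraries, and 5.1 in IMQ+IDMF.

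**Figure D1:**
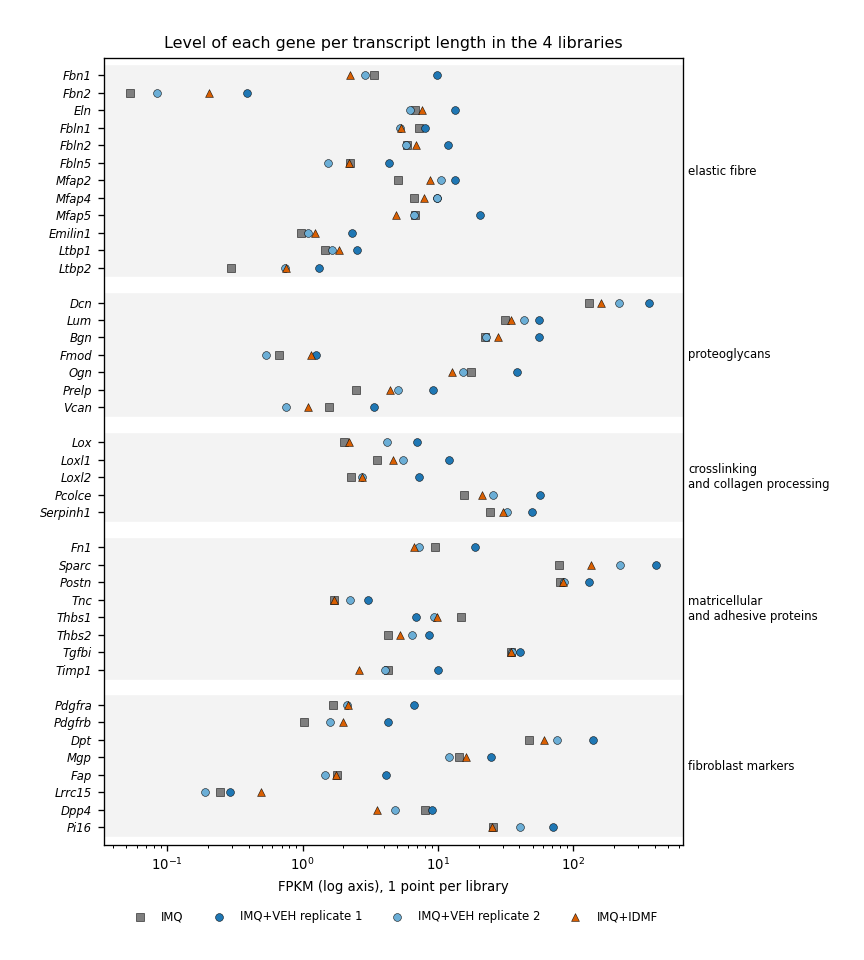
FPKM of each of the 40 genes on a log axis, 1 point per library, with the genes in their 5 groups. Dcn and Sparc reach farthest to the right, Fbn2 and Lrrc15 farthest to the left, and the dark blue circle of IMQ+VEH replicate 1 is the rightmost point in most rows.

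Replicate 1 stood apart from the other 3 libraries for these genes. It was the highest of the 4 libraries for 36 of the 40 genes, where 29.0% of all 15068 genes tested had replicate 1 highest. The exceptions were Fbln1, Mfap4, Thbs1 and Lrrc15. Dpp4, counted among the 36, was level between replicate 1 and IMQ. In FPKM replicate 1 was highest for Fbln1 too, at 8.00 against 7.26 in IMQ. Within the IMQ+VEH pair, which was treated alike, replicate 2 lay below replicate 1 for 38 genes (53.0% of all genes), and 2-fold or more below it for 16 genes (8.08% of all genes). No gene of the 40 was 2-fold above it (1.92% of all genes). The median difference of replicate 2 from replicate 1 was -0.84 on the log2 CPM scale (CPM are counts scaled to a common library size), against -0.03 over all genes tested. The summed level of the 40 genes was 2209.8 CPM in IMQ, 4897.3 and 2988.5 CPM in the IMQ+VEH libraries, and 2388.0 CPM in IMQ+IDMF. In whole skin, fewer fibroblasts and less RNA per fibroblast cannot be told apart. Each difference is therefore given to both IMQ+VEH libraries.

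Markers of other cell types also differed within the pair, where replicate 2 was below replicate 1 for 53.0% of all genes tested. Replicate 2 lay below replicate 1 for 12 of 12 endothelial markers (summed level 318.5 and 160.0 CPM in replicates 1 and 2, 228.3 in IMQ+IDMF and 147.6 in IMQ). It lay below for 12 of 12 macrophage and monocyte markers (1169.0 and 642.5 CPM, with 439.1 in IMQ+IDMF and 725.3 in IMQ), and for 12 of 12 Schwann cell markers (502.9 and 285.2 CPM, with 265.0 and 126.1). The same held for 12 of 12 skeletal muscle markers, 11 of 12 smooth muscle and pericyte markers and 11 of 12 adipocyte markers. The 12 keratinocyte markers went the other way for 11 genes (52525.1 and 66984.3 CPM, with 60760.8 in IMQ+IDMF and 70653.7 in IMQ). Krt5 and Krt14 of the basal epidermis, Ckm of skeletal muscle, Adipoq of adipocytes and the fibroblast marker Pdgfra had counts in all 4 libraries. Transcripts of epidermis, dermis, fat and muscle were thus detected in each library, in amounts that differed. Adipoq, for example, had 51.3 CPM in IMQ, 226.5 and 167.7 CPM in IMQ+VEH and 147.4 CPM in IMQ+IDMF. The part of these cell types in the differences given here was not tested.

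Setting IMQ+IDMF against IMQ+VEH compares the active lotion with the placebo lotion. With 1 IMQ+IDMF library, a difference of the lotion and a difference of that library cannot be told apart. For most of the 40 genes the IMQ+IDMF library lay low: 25 genes were below both IMQ+VEH libraries (27.5% of all genes tested) and 2, Thbs1 and Lrrc15, were above both (27.6% of all genes). Taken singly, 38 genes were below replicate 1 (50.4% of all genes) and 25 below replicate 2 (49.4%), with median log2 CPM differences of -0.90 and -0.08. Over all genes both medians were 0.00. Some of these 25 genes were nearly level with replicate 2, with log2 CPM differences of -0.03 for Loxl2, -0.05 for Postn and -0.06 for Tgfbi. Fbln1 (23.25 CPM against 23.27) and Pdgfra (18.87 against 18.93) were closer still, and both were above replicate 2 in FPKM. IMQ+IDMF was the lowest of the 4 libraries for 10 genes (19.5% of all genes): Fbn1, Fbln1, Mfap5, Ogn, Fn1, Tnc, Tgfbi, Timp1, Dpp4 and Pi16. The IMQ+IDMF library was nearer to replicate 2 than to replicate 1 for 36 genes (53.3% of all genes). The gap within the pair was wider than the distance of IMQ+IDMF from the pair's mean for 27 genes, a share near the 66.3% of all genes. In the fit across all genes (edgeR quasi-likelihood F test, two-sided, Benjamini-Hochberg), 0 of the 40 genes passed the threshold of 0.05 in either direction, and 0.0% of all genes did. The log2 fold change was below 0 for 37 genes. The median log2 CPM difference of IMQ+IDMF from the pair's mean was -0.46 for the 40 genes and 0.01 over all genes. At an unadjusted p under 0.05 there were 11 genes (2.03% of all genes). That count was 6 with a robust estimate of the prior spread, beside 270 of all 15068 genes. It was 1 with IMQ and IMQ+VEH joined as 1 group, beside 168 of all 15068 genes. DESeq2 called 0 of the 40 and 0.0% of all genes.

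**Figure D2:**
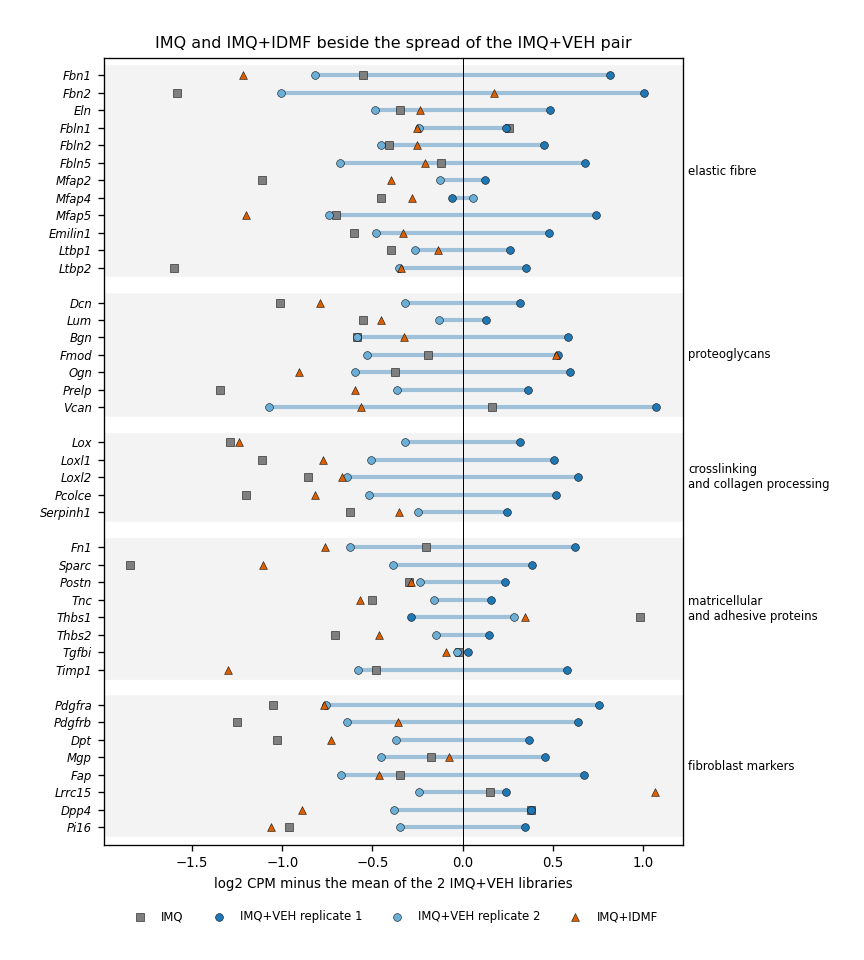
Log2 CPM of each gene in each library, as the distance from the mean of the 2 IMQ+VEH libraries. The pale bar joins the IMQ+VEH pair. For 25 genes the orange triangle of IMQ+IDMF lies to the left of the whole bar, in some rows only just. For Thbs1 and Lrrc15 it lies to the right.

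Lotion against no lotion gave the opposite picture with the same pair. IMQ lay below both IMQ+VEH libraries for 22 genes (33.5% of all genes tested) and above both for 2, Fbln1 and Thbs1 (35.0% of all genes). It was below replicate 1 for 38 genes (48.3% of all genes), below replicate 2 for 22 (50.2%), and the lowest of the 4 libraries for 20 (28.9%). The median log2 CPM difference of IMQ+VEH from IMQ was 0.99 for replicate 1 and 0.13 for replicate 2, against -0.02 and 0.00 over all genes. By edgeR 0 of the 40 genes passed, where 0.338% of all genes were called higher and 0.325% lower in IMQ+VEH. An unadjusted p under 0.05 was found for 17 genes (8.81% of all genes), and the smallest adjusted p among the 40 was 0.153, for Sparc. DESeq2 called 1 gene of the 40, Sparc, and 1.15% of all genes. Both comparisons rest on the same 2 IMQ+VEH libraries, so a high replicate 1 moves them in opposite directions.

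The IMQ+IDMF library was also set directly against IMQ. This is 1 library against 1 and has no test. The median log2 CPM difference was 0.16, IMQ+IDMF was the lower library for 14 genes (49.8% of all genes), and 37 of the 40 genes differed less than 2-fold. Fbn2 (1.76) and Ltbp2 (1.27) were 2-fold or more above IMQ (6.78% of all genes), and Dpp4 (-1.26) was 2-fold or more below it (4.51% of all genes). These counts lie near the shares of all genes, so differences under 2-fold were not particular to the 40 genes.

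**Figure D3:**
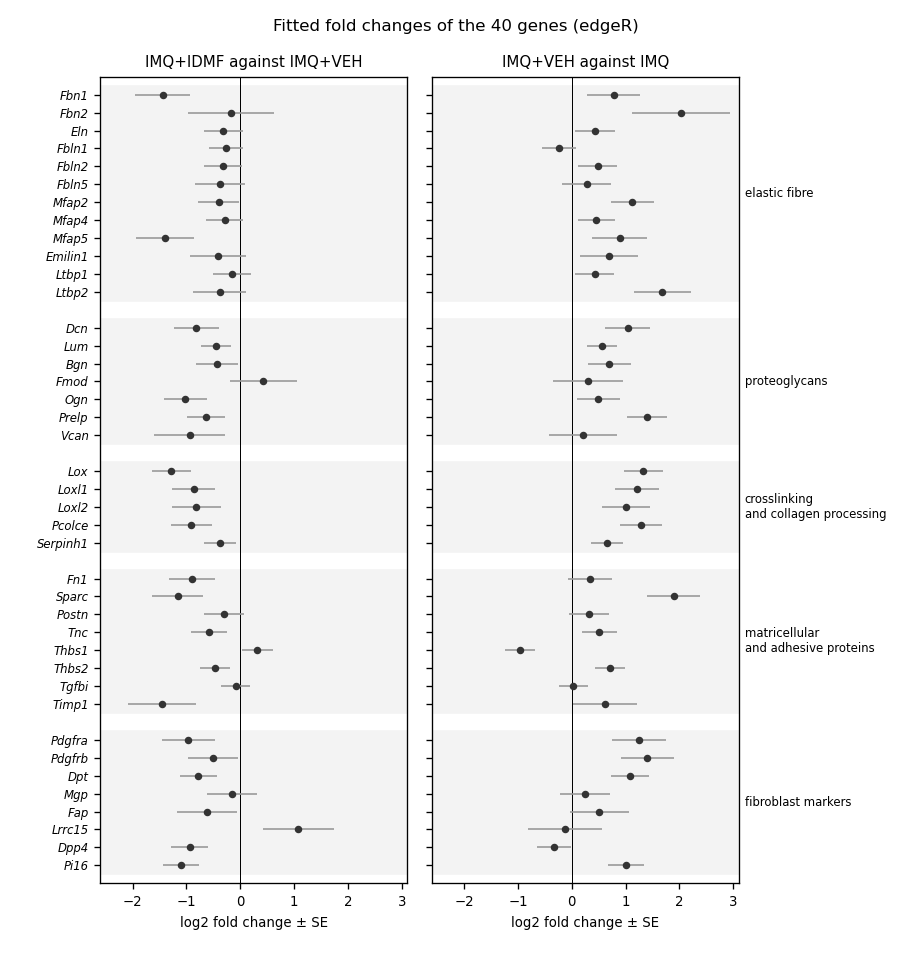
Log2 fold changes with standard errors from the edgeR fit for the 40 genes, IMQ+IDMF against IMQ+VEH on the left and IMQ+VEH against IMQ on the right. None passed the threshold in either panel, the left values are below 0 for 37 genes, and the right values are above 0 for 36 genes. Both panels share the IMQ+VEH pair, in which replicate 1 was the higher library for 38 of the 40 genes.

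The sequences of 4 promoters are shown, for genes with different patterns over the libraries. Fbn1 had the largest negative difference of IMQ+IDMF from replicate 1, Sparc the largest difference of replicate 2 from IMQ, and Pi16 was 1 of the 7 genes with IMQ+IDMF below the pair by more than its width. Lrrc15 was above both by more than that width. Each line gives the 250 bases before the RefSeq transcription start in GRCm38.p6, 5′ to 3′ on the gene's strand, with capitals for matches to 5 short motifs. The motifs were the TATA box (TATAAA), the CCAAT box (CCAAT), the GC box (GGGCGG), the AP-1 site (TGANTCA) and the TEAD site (GGAATG), searched on both strands. No match overlapped another in these 4 sequences. For Fbn1, Sparc and Pi16 the RefSeq start lies inside the GENCODE gene, which has an outer start farther upstream.
Fbn1, chr2:125506439-125506688, minus strand: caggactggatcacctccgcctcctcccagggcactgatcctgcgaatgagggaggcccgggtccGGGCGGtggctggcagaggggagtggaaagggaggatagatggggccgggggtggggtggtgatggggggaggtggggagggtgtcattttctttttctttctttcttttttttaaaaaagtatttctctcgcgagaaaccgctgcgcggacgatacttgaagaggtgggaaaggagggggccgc
Sparc, chr11:55420081-55420330, minus strand: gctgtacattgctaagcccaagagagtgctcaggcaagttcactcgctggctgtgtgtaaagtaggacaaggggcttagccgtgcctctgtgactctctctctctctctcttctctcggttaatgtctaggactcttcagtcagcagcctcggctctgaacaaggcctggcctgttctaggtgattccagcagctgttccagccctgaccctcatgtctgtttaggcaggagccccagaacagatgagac
Pi16, chr17:29318632-29318881, plus strand: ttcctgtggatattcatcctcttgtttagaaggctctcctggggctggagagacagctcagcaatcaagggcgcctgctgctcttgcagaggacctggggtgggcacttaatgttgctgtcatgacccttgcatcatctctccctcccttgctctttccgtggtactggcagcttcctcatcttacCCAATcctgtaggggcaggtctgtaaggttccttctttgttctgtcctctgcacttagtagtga
Lrrc15, chr16:30283255-30283504, minus strand: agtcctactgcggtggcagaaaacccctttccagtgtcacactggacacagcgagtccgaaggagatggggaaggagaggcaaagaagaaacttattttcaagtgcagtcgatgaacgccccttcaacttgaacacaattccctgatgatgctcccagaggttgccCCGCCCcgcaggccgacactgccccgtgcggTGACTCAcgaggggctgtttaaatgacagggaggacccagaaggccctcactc

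In these windows Fbn1 had a GC box, Pi16 a CCAAT box, and Lrrc15 a GC box on the reverse strand and an AP-1 match. Sparc had no match to the 5 motifs. RefSeq promoters were found for 26 of the 40 genes, with 32 start sites. GC boxes were present in 46.9% of these 32 windows, against 32.7% of all 32851 windows in the table. Shares for the TATA box were 18.8% and 12.4%, for the CCAAT box 25.0% and 33.8%, for the TEAD site 12.5% and 12.6%, and for the AP-1 site 3.12% and 6.75%. Lrrc15 was the only one of the 26 genes with an AP-1 match. A match is a description of letters in the window and not a measured binding site.

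Among the elastic fibre genes, the fibrillin Fbn1 and its partner Mfap5, a microfibril-associated glycoprotein, were both lowest in IMQ+IDMF. Fbn1 (chr2:125300594-125507993, GRCm38) had 47.4 CPM in IMQ, 123 and 39.3 CPM in the IMQ+VEH libraries, and 29.8 CPM in IMQ+IDMF. Mfap5 (chr6:122505845-122529290) had 11.7 CPM, 31.9 and 11.4 CPM, and 8.23 CPM in the same order. Replicate 1 was the high library for both genes, and IMQ and replicate 2 lay close to each other. By edgeR the log2 fold change of IMQ+IDMF against IMQ+VEH was -1.45 for Fbn1 (SE 0.51, adjusted p = 1) and -1.40 for Mfap5 (SE 0.53, adjusted p = 1). The pair itself differed by -1.64 and -1.48 on the log2 CPM scale, and against replicate 2 alone IMQ+IDMF differed by -0.40 and -0.46.

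Fbn2, a fibrillin mainly of developing tissue, followed another order. It had 20 counts in IMQ, 145 and 25 in IMQ+VEH, and 64 in IMQ+IDMF. IMQ+IDMF lay between the IMQ+VEH libraries, with a log2 CPM difference of -0.83 to replicate 1 and 1.18 to replicate 2. Elastin itself, Eln, had 34.6 CPM in IMQ, 61.8 and 31.4 CPM in IMQ+VEH and 37.5 CPM in IMQ+IDMF, so that only replicate 1 was high. The fibulins Fbln2 and Fbln5, which tether elastin to microfibrils and cells, had IMQ+IDMF inside the pair as well, with log2 fold changes of -0.32 (SE 0.35) and -0.37 (SE 0.46). Fbln1 was nearly level between IMQ and replicate 1, at 33.0 and 32.6 CPM, and between replicate 2 and IMQ+IDMF, at 23.3 CPM in each.

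The small microfibril proteins Mfap2 and Mfap4 had a narrow pair, and IMQ and IMQ+IDMF lay below it. Mfap2 had 6.42 CPM in IMQ, 15.2 and 12.8 CPM in IMQ+VEH and 10.6 CPM in IMQ+IDMF. Mfap4 had 12.6 CPM, 16.6 and 18.1 CPM, and 14.2 CPM in this order. For both genes IMQ and IMQ+IDMF lay below the pair by more than its width. Over the 40 genes IMQ+IDMF did so for 7 (11.9% of all genes) and IMQ for 10 (16.4% of all genes). Log2 fold changes of IMQ+IDMF against IMQ+VEH were -0.40 (SE 0.39) for Mfap2 and -0.29 (SE 0.35) for Mfap4, and those of IMQ+VEH against IMQ were 1.13 (SE 0.40) and 0.46 (SE 0.35). Emilin1, Ltbp1 and Ltbp2, an elastin-associated glycoprotein and 2 members of the latent TGF-beta binding family, were lowest in IMQ, and IMQ+IDMF lay inside the pair for all 3. Ltbp2 was the widest of them, with 69 counts in IMQ, 303 and 135 in IMQ+VEH and 149 in IMQ+IDMF (1.68, SE 0.53, adjusted p = 0.279 by edgeR for IMQ+VEH against IMQ). As a group, 5 of the 12 elastic fibre genes had IMQ+IDMF below both IMQ+VEH libraries (27.5% of all genes) and 0 above both (27.6%). The group median was -0.71 to replicate 1 and 0.08 to replicate 2.

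Decorin, Dcn, is the main small proteoglycan of the dermis and was the most abundant of the 7 proteoglycan genes in each library, at 130.3 to 362.5 FPKM. It had 305 CPM in IMQ, 765 and 490.5 CPM in IMQ+VEH, and 356 CPM in IMQ+IDMF. Its neighbour lumican, Lum, had 84.4 CPM, 135 and 113 CPM, and 90.2 CPM. Both were ordered replicate 1, replicate 2, IMQ+IDMF, IMQ. Of the 40 genes, 14 had this order, against 5.61% of all genes tested. Dcn (chr10:97479609-97518143) and Lum (chr10:97565128-97572703) lie 47.0 kb apart. By edgeR the log2 fold changes of IMQ+IDMF against IMQ+VEH were -0.82 (SE 0.42) for Dcn and -0.46 (SE 0.28) for Lum, and those of IMQ+VEH against IMQ were 1.04 (SE 0.42) and 0.56 (SE 0.28). Prelp, which links basement membrane and collagen, had this order as well, with 12.2 CPM in IMQ, 40.1 and 24.1 CPM in IMQ+VEH and 20.6 CPM in IMQ+IDMF.

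Osteoglycin, Ogn, grouped with Fbn1 and Mfap5. It had 58.8 CPM in IMQ, 115 and 50.5 CPM in IMQ+VEH and 40.8 CPM in IMQ+IDMF, the lowest of the 4 (log2 fold change against IMQ+VEH -1.02, SE 0.41). Biglycan, Bgn, lay inside the pair, at 84.0 CPM against 157 and 69.8 CPM, with 69.9 CPM in IMQ. Fibromodulin, Fmod, which is related to lumican and lies 116 kb from Prelp on chromosome 1, was as high in IMQ+IDMF as in replicate 1, at 4.25 and 4.28 CPM. It had 2.00 CPM in replicate 2 and 2.56 CPM in IMQ, and its counts were 41 to 120. Versican, Vcan, a large aggregating proteoglycan, had the widest pair of the 40 genes: 25.2 and 5.61 CPM, with 13.4 CPM in IMQ and 8.05 CPM in IMQ+IDMF. In all, 4 of the 7 proteoglycan genes had IMQ+IDMF below both IMQ+VEH libraries (27.5% of all genes) and 0 above both (27.6%). The group median was -0.96 to replicate 1 and -0.23 to replicate 2.

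For crosslinking and collagen processing, all 5 genes had IMQ+IDMF below both IMQ+VEH libraries (27.5% of all genes) and IMQ below all others (28.9%). Lox, the founding lysyl oxidase, had 326 counts in IMQ, 1099 and 518 in IMQ+VEH and 296 in IMQ+IDMF. These are 12.8, 39.2, 25.3 and 13.2 CPM, so IMQ and IMQ+IDMF were nearly level and both lay below the pair by more than its width. By edgeR the log2 fold change of Lox was -1.28 for IMQ+IDMF against IMQ+VEH (SE 0.36, adjusted p = 1) and 1.33 for IMQ+VEH against IMQ (SE 0.36, adjusted p = 0.177). Lox had the smallest unadjusted p of the 40 genes in the first comparison, 0.00403 by edgeR, and IMQ+IDMF differed from replicates 1 and 2 by -1.56 and -0.93 in log2 CPM.

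Its relatives Loxl1, which acts on elastin, and Loxl2, which acts on collagen of basement membranes, had wider pairs. Loxl1 had 15.9 CPM in IMQ, 48.9 and 24.3 CPM in IMQ+VEH and 20.1 CPM in IMQ+IDMF. Loxl2 had 16.5 CPM, 46.7 and 19.2 CPM, and 18.8 CPM. The log2 CPM difference of IMQ+IDMF from replicate 2 was -0.27 for Loxl1 and -0.03 for Loxl2, so replicate 1 alone stood high for Loxl2. Pcolce, an enhancer of procollagen C-proteinase, had 29.9 CPM in IMQ, 98.3 and 47.8 CPM in IMQ+VEH and 38.9 CPM in IMQ+IDMF. Serpinh1, the collagen chaperone HSP47, varied least of the 5, with 71.0 CPM, 130.0 and 92.3 CPM, and 85.7 CPM. The group median was -1.31 to replicate 1 and -0.27 to replicate 2, while replicates 1 and 2 differed from IMQ by a median of 1.60 and 0.61.

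Among matricellular and adhesive proteins, Sparc had the widest range, its highest library being 4.69 times its lowest in CPM. SPARC is a collagen-binding glycoprotein of remodelling tissue. Sparc (chr11:55394500-55423183) had 6977 counts in IMQ, 36169 and 15448 in IMQ+VEH and 10213 in IMQ+IDMF, or 275, 1289, 753.5 and 457 CPM. All 4 libraries were well apart, with both IMQ+VEH libraries highest, then IMQ+IDMF, then IMQ. The log2 fold change of IMQ+VEH against IMQ was 1.89 by edgeR (SE 0.49, adjusted p = 0.153) and 1.90 by DESeq2 (adjusted p = 9e-05). For IMQ+IDMF against IMQ+VEH it was -1.16 (SE 0.47, adjusted p = 1 by edgeR), with log2 CPM differences of -1.50 and -0.72 to the single libraries. Col1a1 and Col1a2, the chains of type I collagen, went with Sparc. Col1a1 had 4497 counts in IMQ, 32253 and 12140 in IMQ+VEH and 9139 in IMQ+IDMF, and Col1a2 had 9230, 48034 and 20076, and 13474.

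Fibronectin, Fn1, and Timp1, an inhibitor of metalloproteinases, were lowest in IMQ+IDMF. Fn1 had 106 CPM in IMQ, 189 and 79.5 CPM in IMQ+VEH and 72.0 CPM in IMQ+IDMF. Timp1 had 106 counts in IMQ, 247 and 80 in IMQ+VEH and 52 in IMQ+IDMF. Its log2 fold change against IMQ+VEH was -1.45 (SE 0.63), and differences in log2 CPM were -1.88 to replicate 1 and -0.73 to replicate 2. Tenascin C, Tnc, and thrombospondin 2, Thbs2, lay below a narrow pair in both IMQ and IMQ+IDMF. Thbs2 had 35.1 CPM in IMQ, 63.3 and 51.8 CPM in IMQ+VEH and 41.7 CPM in IMQ+IDMF. Periostin, Postn, had 345 to 359 CPM in 3 libraries and 498 CPM in replicate 1. Tgfbi, a TGF-beta-induced adhesion protein, was the most even of the 40 genes, at 118 to 128 CPM, the highest library being 1.09 times the lowest.

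Thrombospondin 1, Thbs1, went against the other genes. Thbs1 (chr2:118111876-118127133) had 3034 counts in IMQ, 1388 and 1506 in IMQ+VEH and 1708 in IMQ+IDMF, or 120, 49.5, 73.5 and 76.4 CPM. IMQ was the highest library, replicate 1 the lowest, and IMQ+IDMF just above replicate 2. IMQ lay above the pair by more than its width, and Thbs1 was the only one of the 40 genes where it did (17.8% of all genes). The log2 fold change of IMQ+VEH against IMQ was -0.96 (SE 0.29, adjusted p = 0.239 by edgeR) and that of IMQ+IDMF against IMQ+VEH was 0.31 (SE 0.29). Of the 8 matricellular and adhesive genes, 7 had IMQ+IDMF below both IMQ+VEH libraries (27.5% of all genes), Thbs1 being the exception. The group median was -0.67 to replicate 1 and -0.23 to replicate 2.

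Of the fibroblast markers, Pi16 and Dpp4 mark a fibroblast population of the reticular dermis and fascia that is described as progenitor-like. Pi16 had 75.4 CPM in IMQ, 187 and 116 CPM in IMQ+VEH and 70.6 CPM in IMQ+IDMF. IMQ+IDMF and IMQ were close to each other and below both IMQ+VEH libraries (log2 fold change of IMQ+IDMF against IMQ+VEH -1.10, SE 0.33, adjusted p = 1 by edgeR). Dpp4, a membrane peptidase also found on other cells, had 58.3 CPM in both IMQ and replicate 1, 34.4 CPM in replicate 2 and 24.2 CPM in IMQ+IDMF (-0.94, SE 0.34). Fap, the related peptidase of activated fibroblasts, lies 88.7 kb from Dpp4 on chromosome 2 and had another pattern, with IMQ+IDMF inside the pair at 5.99 CPM against 13.3 and 5.17 CPM.

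Pdgfra, the platelet-derived growth factor receptor that marks fibroblasts, had 392 counts in IMQ, 1531 and 388 in IMQ+VEH and 422 in IMQ+IDMF. In CPM replicate 2 and IMQ+IDMF were level, at 18.9 in each, against 54.6 in replicate 1 and 15.4 in IMQ. Pdgfrb, the receptor shared with pericytes, had 28.8 and 11.8 CPM in IMQ+VEH, 14.3 CPM in IMQ+IDMF and 7.68 CPM in IMQ. In the pericyte and smooth muscle list IMQ+IDMF was above both IMQ+VEH libraries for 5 of 12 genes (27.6% of all genes) and below both for 0 (27.5%). The summed level of that list was 1117.6 CPM in IMQ, 1671.5 and 1463.3 in IMQ+VEH, and 1797.1 in IMQ+IDMF. Most of each sum was Des alone, at 834.5 CPM in IMQ, 1102 and 1152 in IMQ+VEH and 1276 in IMQ+IDMF. By gene, the list's median log2 CPM difference was -0.95 for replicate 2 from replicate 1. For IMQ+IDMF it was -0.14 to replicate 1 and 0.73 to replicate 2. The part of that list in the value of Pdgfrb was not tested. Dpt, dermatopontin, had 96.7 CPM in IMQ, 257 and 153 CPM in IMQ+VEH and 119 CPM in IMQ+IDMF. Mgp, matrix Gla protein, an inhibitor of calcification, lay inside the pair at 8.77 CPM against 12.7 and 6.73 CPM.

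Lrrc15, a leucine-rich repeat protein of activated, myofibroblast-like cells, was the only one of the 40 genes with IMQ+IDMF above the pair by more than its width (11.6% of all genes). It had 46 counts in IMQ, 54 and 28 in IMQ+VEH and 78 in IMQ+IDMF. IMQ+IDMF differed by 0.83 from replicate 1, 1.30 from replicate 2 and 0.91 from IMQ in log2 CPM, and the fitted log2 fold change was 1.08 (SE 0.66, adjusted p = 1 by edgeR). The counts were low, and a higher Lrrc15 was not shown by the test. Among the 8 markers, 4 had IMQ+IDMF below both IMQ+VEH libraries (27.5% of all genes) and 1 above both (27.6%). The group median was -1.12 to replicate 1 and 0.10 to replicate 2, which differ in sign.

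Related genes outside the 40 were taken from 6 lists (123 genes in the tables, 118 tested). In IMQ+IDMF against IMQ+VEH, 0 of 118 passed by edgeR (0.0% of all genes). An unadjusted p under 0.05 by edgeR was found for 13 of them (2.03% of all genes). IMQ+IDMF was below both IMQ+VEH libraries for 51 (27.5% of all genes) and above both for 18 (27.6%). The median differences of the 118 genes were -0.51 and 0.01 to the single IMQ+VEH libraries. Those named by a fixed rule, the 2 per list farthest from both libraries, included Ecm2, a relative of decorin (-1.81 and -0.76 to replicates 1 and 2), Spp1, osteopontin (-1.32 and -0.89), Clec3b, tetranectin (-1.21 and -0.73), Col1a2 (-1.51 and -0.70), and Pcolce2, the second procollagen enhancer (-0.87 and -0.66). Adamtsl1 (-1.47 and -0.48), Omd (-0.64 and -0.44) and Nov (-0.57 and -0.39) lay below as well. P3h2, a prolyl hydroxylase of collagen, lay above both, by 0.71 and 0.93, as did Tgfb1 (0.30 and 0.63), Smad3 (0.38 and 0.21) and Tgif1 (0.40 and 0.24). Smad3 and Tgif1 belong to the list of TGF-beta receptors, SMADs and response genes, whose 17 genes had medians of 0.06 and 0.08 to the 2 libraries, with 3 genes below both and 6 above both.

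In IMQ+VEH against IMQ, 2 of the 118 related genes were called higher (0.338% of all genes) and 1 lower (0.325%) by edgeR. Timp4, a tissue inhibitor of metalloproteinases that is also abundant in fat, rose, with 65 counts in IMQ and 635 and 350 in IMQ+VEH (a log2 difference of 2.95, SE 0.43, adjusted p = 0.00768). The adipocyte list stood beside it with 12 of 12 markers higher in both IMQ+VEH libraries than in IMQ (33.5% of all genes). Its summed level was 1097.1 CPM in IMQ, and 4515.1 and 3115.8 in IMQ+VEH. The part of the adipocyte list in the Timp4 value was not tested. Pcolce2 rose, with 366 counts in IMQ and 1371 and 864 in IMQ+VEH (1.66, SE 0.31, adjusted p = 0.0341 by edgeR). Has3, a hyaluronan synthase, fell, with 990 counts in IMQ and 366 and 276 in IMQ+VEH (-1.56, SE 0.30, adjusted p = 0.0385 by edgeR). Without scaling factors for library composition, Has3 (adjusted p = 0.0972 by edgeR) and Pcolce2 (adjusted p = 0.0507 by edgeR) no longer passed.

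Other related genes named for that comparison did not pass by edgeR with the scaling and filter used throughout. Col1a1 (2.30, SE 0.51, adjusted p = 0.0809 by edgeR), Wisp2, a matricellular protein of the CCN family (2.26, SE 0.49, adjusted p = 0.0712 by edgeR), and Adamtsl4, which binds fibrillin (1.63, SE 0.36, adjusted p = 0.0808 by edgeR), passed with RLE size factors in edgeR (adjusted p = 0.0461, 0.0411 and 0.0458) and by DESeq2 (adjusted p = 4.39e-06, 0.00624 and 0.0167). Tgm2, a transglutaminase, passed by DESeq2 (adjusted p = 0.0387). Values for Podn (1.52, SE 0.39), Twist2 (1.78, SE 0.62), Tgfb2 (1.12, SE 0.47) and Tgm2 (1.15, SE 0.29) were above 0, as were those of the TGF-beta receptors Tgfbr2 (1.12, SE 0.30) and Tgfbr3 (1.22, SE 0.33). Without a filter on low counts Podn, Tgfbr2 and Tgfbr3 passed by edgeR (adjusted p = 0.00379, 0.0181 and 0.00767). IMQ lay below both IMQ+VEH libraries for 78 of the 118 related genes (33.5% of all genes) and above both for 15 (35.0%). Their median difference from IMQ was 1.03 for replicate 1 and 0.35 for replicate 2.

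**Figure D4:**
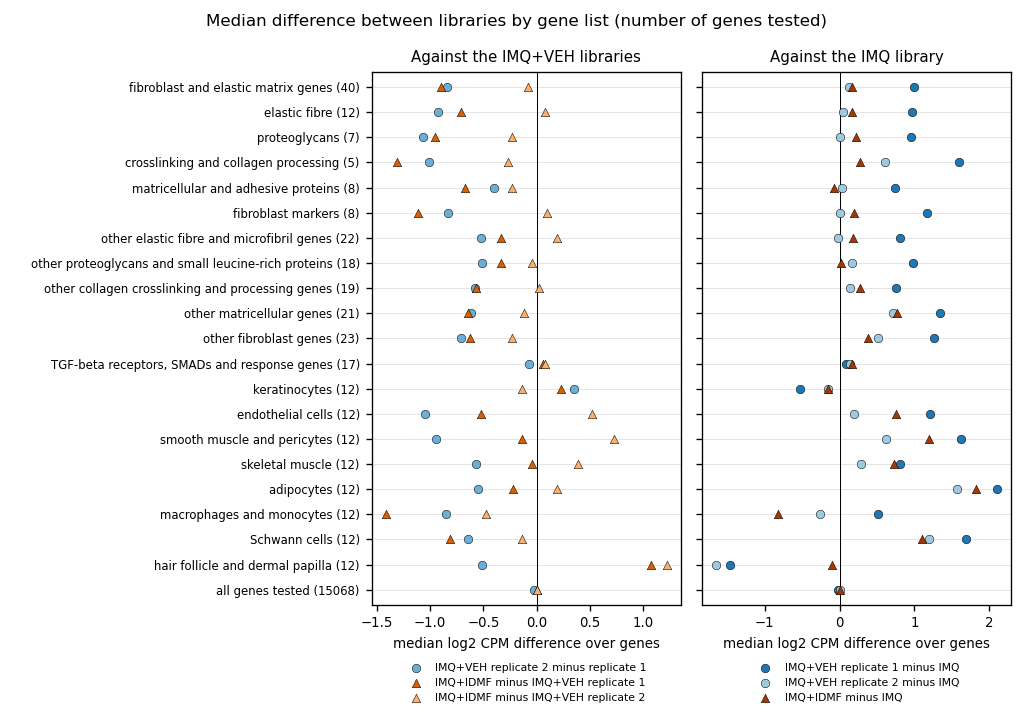
Median log2 CPM difference between single libraries for the 40 genes, their 5 groups, the 6 lists of related genes, 8 cell type lists and all genes tested, with the number of genes tested in brackets. For the 40 genes the difference within the IMQ+VEH pair (-0.84) is about as large as that of IMQ+IDMF from replicate 1 (-0.90), and the difference from replicate 2 is -0.08.

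Of the cell type lists, macrophages and monocytes lay low in IMQ+IDMF: 12 of 12 markers were below both IMQ+VEH libraries (27.5% of all genes tested). Lyz2, a lysozyme of myeloid cells, had 389 and 224 CPM in IMQ+VEH, 132 CPM in IMQ+IDMF and 308 CPM in IMQ. Endothelial markers had IMQ+IDMF below both IMQ+VEH libraries for 1 of 12, beside the same 27.5%. Pecam1 was at 76.4 and 34.1 CPM in IMQ+VEH and 48.6 CPM in IMQ+IDMF. The hair follicle list was above both in IMQ+IDMF for 11 of 12 genes (27.6% of all genes) and in IMQ for 10 of 12 (35.0%). The summed level of the hair follicle list was 79.2 CPM in IMQ, 19.8 and 16.4 in IMQ+VEH, and 37.9 in IMQ+IDMF. Of its keratins, Krt35 was at 0 counts in replicate 2 and Krt85 at 0 counts in both IMQ+VEH libraries. No marker of the other 7 cell type lists was at 0 in any library. Whether these cell types share in the levels of the 40 genes was not tested.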

How the data were processed

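RNA-seq tables of 4 libraries (1 IMQ, 2 IMQ+VEH, 1 IMQ+IDMF; single-end runs of 50 cycles, per the labels' protocols) were analysed. Per the file headers, the authors deposited a raw count and an FPKM value per gene symbol. The submitters' processing notes name TopHat2, Cufflinks, HTSeq, GRCm38 and mm10. Versions, annotation and strand setting were not given in the sources used here. Exons of 15 of the 40 genes overlap another gene on the opposite strand in GENCODE M21 (Fbn1, Thbs1, Dpp4 and Fn1 among them), so their reads may be mixed.

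Counts were fitted with edgeR 4.0.16 in R 4.3.3 (filterByExpr, TMM scaling, 1 mean per group, 15068 genes, quasi-likelihood F test, Benjamini-Hochberg, threshold 0.05). Only the IMQ+VEH pair is replicated, which leaves 1 residual degree of freedom with 11.2 prior degrees. The single libraries are assumed to vary like that pair, and nothing given here says whether it was prepared in 1 batch. P-values of this fit set each difference against the spread within the IMQ+VEH pair, moderated by the spread over all genes. The IMQ and IMQ+IDMF libraries add no estimate of spread. SE was taken as the log2 fold change over the root of its F value. CPM uses TMM library sizes, and log2 CPM a prior count of 2. A count of 3 equals 0.107 to 0.146 CPM. DESeq2 1.42.0, other scalings, filters, a robust prior, log2(FPKM + 1) and leaving out libraries were alternatives. The 40 genes and the lists were chosen with earlier results of these data known. All 40 genes were described. Related genes were named if they passed the threshold or were among the 2 per list and comparison (mean log2 CPM of at least 1) with the largest smaller difference to the single libraries. Promoters are from RefSeq (GRCm38.p6).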

Additional observations from a re-analysis of the deposited data

How the results depend on the processing

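Directions of the 40 genes held under every alternative with a test, except when IMQ and IMQ+VEH were joined as 1 group of 3 libraries. IMQ+IDMF then had a log2 fold change of 0.25 for Fbn2 and -0.082 for Thbs1 (adjusted p = 1 by edgeR for both). Without a filter on low counts edgeR called 16 genes (0.0913%) in IMQ+IDMF against IMQ+VEH, Fbn1 among them (adjusted p = 0.00788). Fbn1 itself passes that filter, and its log2 fold change was -1.45 with and without it. In IMQ+VEH against IMQ 424 genes (2.42%) were called, where 100 were called with the filter. Those 424 include 10 of the 40: Prelp, Lox, Loxl1, Pcolce, Sparc, Thbs1, Pdgfra, Pdgfrb, Dpt and Pi16. DESeq2 called 202 genes in the second comparison. In leaving out an IMQ+VEH library, chosen after seeing the data, IMQ+IDMF was below the one left for 25 (without replicate 1) to 38 genes (without replicate 2), and above it for 15 to 2. IMQ was below for 22 to 38 genes and above for 18 to 2. The counts below are those already given against each single IMQ+VEH library, with their shares of all genes, so they are no separate check. Without scaling factors IMQ was above both for 1 gene (Thbs1), and the median of all genes shifted by -0.15 within the pair, where the 40 genes had -0.96. No paired analysis was possible because the other 2 groups hold 1 library each. Depth limits Fbn2 and Lrrc15 most.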

Other observations

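Ratios between genes of one library do not depend on the scaling of that library. They are given as FPKM ratios for pairs chosen with earlier results of these data known, and have no test. Thbs1 to Thbs2, the 2 related thrombospondins, was 3.48 in IMQ, 0.799 and 1.45 in IMQ+VEH and 1.87 in IMQ+IDMF, so IMQ was highest and the lotion libraries all lower. Lox to Eln, the crosslinking enzyme to its substrate, was 0.303 in IMQ and 0.289 in IMQ+IDMF, and 0.522 and 0.667 in the vehicle pair. Both values of the pair were above those of the other 2 libraries. Some other chosen ratios, such as Dcn to Bgn, were also separated, and others, such as Mfap2 to Fbn1, were not. No share over all pairs of genes was computed, so the separation is a description only. Loxl1 to Eln was also higher in IMQ+VEH (0.904 and 0.884) than in IMQ (0.524) and IMQ+IDMF (0.612).

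Mfap5 to Fbn1 was nearly constant, at 1.98 in IMQ, 2.09 and 2.32 in IMQ+VEH and 2.21 in IMQ+IDMF, while the FPKM of each gene varied over 4-fold between libraries (Fbn1 from 2.23 to 9.81, Mfap5 from 4.92 to 20.5). Mfap2 to Fbn1 was instead 1.5 and 1.37 in IMQ and replicate 1 and 3.63 and 3.93 in replicate 2 and IMQ+IDMF. Fbn2 to Fbn1 was highest in IMQ+IDMF, at 0.0907. It was 0.0157 in IMQ and 0.0397 and 0.0293 in the vehicle pair, and rests on 20 to 145 counts of Fbn2. Lrrc15 to Pi16 was 0.0198 in IMQ+IDMF, 0.0041 and 0.00472 in IMQ+VEH and 0.00962 in IMQ, and rests on 28 to 78 counts of Lrrc15. In IMQ+IDMF Lrrc15 lay above the IMQ+VEH pair and Pi16 below it, so the high ratio restates those positions.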
